A study of Arvicanthis niloticus with 7 samples.

Results

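Control arrays 3 and 4, which are labelled liver control replicates 3 and 4, were set against the other 5 arrays of the study, namely control replicates 1 and 2 and palm fruit juice (PFJ) replicates 1 to 3. The 2 arrays were chosen by a measured outcome, since their values across the probes stood apart from those of the other 5, and so every difference between the 2 sets of arrays is given as a description, with no test. They are 2 of the 7 arrays. Of the 25697 probes, 5763 were detected at p under 0.01 on at least 2 of the 7 arrays, and 5255 of these carried a gene symbol. With the brightest such probe standing for each symbol, 4241 genes were described, first with the diets ignored.

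Young male Nile rats (NRs, *Arvicanthis niloticus*) were kept on a high-carbohydrate diet for 4 weeks from 3 weeks of age, with 70% of its energy from carbohydrate, 10% from fat and 20% from protein. The control group (4 arrays) received this diet alone, and the PFJ group (3 arrays) received it with PFJ, an aqueous extract of oil palm fruit rich in phenolics, at 5.4 g of gallic acid equivalents per kg of diet. The authors state that 4 samples per group, chosen for high RNA integrity, were hybridised. They also state that outlier samples were removed by hierarchical clustering, without naming them. Liver RNA was hybridised to the Illumina MouseRef-8 BeadChip, whose probes were designed on mouse genes, and a probe can therefore miss a NR transcript with another sequence. Every array is labelled liver, and the authors state that the RNA was isolated from frozen livers. Livers, kidneys, caecum and adipose tissue of the NRs were excised and weighed. The labels do not tie an array to an animal, so that p-values measure only the spread between these samples, which may be technical.

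The liver parenchyma consists mainly of hepatocytes, which make most plasma proteins and lipoproteins, turn ammonia into urea, form bile acids and oxidise drugs with cytochrome P450 enzymes. The kidney filters blood in glomeruli, whose podocytes hold back protein, and passes the filtrate along a tubule. The proximal tubule takes back phosphate, amino acids, glucose and small proteins across a brush border, the thick ascending limb takes up salt and makes uromodulin, and the distal tubule and collecting duct set the final salt, water and acid content of the urine.

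The arrays were alike in technical measures. Between 4689 and 5137 probes were detected per array, with 5137 and 4887 on control arrays 3 and 4, and the median signal was 1.06 times the background on each array. Across the 4241 genes, which are not independent replicates, the correlation between control arrays 3 and 4 was r = 0.985, that of either with any of the other 5 was 0.726 to 0.745, and that among the other 5 was 0.962 to 0.982. Signals are given below as background-corrected, quantile-normalised log2 values. The lowest value of a detected probe was 6.22 to 6.52 on the 7 arrays, and values below that have no order. Where a gene was undetected on every array of the dimmer set, its fold is a lower bound ("at least N-fold") that compares the mean of the brighter set with the dimmer arrays, each raised to its own lowest detected value where the gene lay under it. Values near 16 lie at the top of the scale, where differences are compressed, so that a difference from such a value is no exact size.

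The 3 genes taken as hepatocyte markers were at background on arrays 3 and 4. *Cps1*, which encodes the first enzyme of the urea cycle, read 5.62 and 5.31 on arrays 3 and 4. Control replicates 1 and 2 had 14.59 and 14.16, and PFJ replicates 1 to 3 had 14.59, 15.03 and 15.43. *Cyp1a2*, a hepatocyte P450 that oxidises caffeine, read 5.59 and 5.62 on the pair and 14.11, 14.35, 14.31, 14.27 and 14.90 on the others in the same order. *Lcat*, the plasma enzyme that esterifies cholesterol on HDL, read 5.90 and 5.08 against 14.12, 14.03, 14.12, 14.22 and 13.65. None of these genes was detected on arrays 3 and 4, all were bright on the other 5, and the sets did not overlap. The folds were at least 353-fold, 272-fold and 213-fold lower on arrays 3 and 4.

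Kidney tubule genes showed the opposite arrangement. *Umod*, which encodes uromodulin, the most abundant protein of normal urine, read 16.01 and 16.03 on arrays 3 and 4 against 4.97, 5.66, 4.93, 4.59 and 6.06 on the others. *Slc12a1*, the sodium-potassium-chloride cotransporter of the thick ascending limb, read 14.44 and 14.53 against 4.58, 4.78, 4.62, 4.66 and 4.78. *Slc34a1*, the sodium-phosphate cotransporter of the proximal tubule, read 12.63 and 12.50 against 5.01, 5.15, 4.92, 5.00 and 5.57. Each was detected on both arrays and on none of the other 5, at least 785-fold, 272-fold and 71.7-fold higher. *Cdh16*, the kidney-specific cadherin, read 9.57 and 8.85 against 5.49, 5.72, 5.36, 5.47 and 4.89, at least 7.00-fold higher. *Miox*, the myo-inositol oxygenase of the proximal tubule, was detected on all 7 arrays, at 15.99 and 15.95 against 11.59, 11.94, 11.74, 11.76 and 11.35. The sets again did not overlap. Thus the label liver was matched by the hepatocyte markers on 5 arrays, and on arrays 3 and 4 these markers were undetected while all 5 kidney markers were detected. The origin of the RNA on the 2 arrays was not tested. In RNA from a whole tissue, fewer cells of a type cannot be told apart from less RNA per cell.

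**Figure D1:**
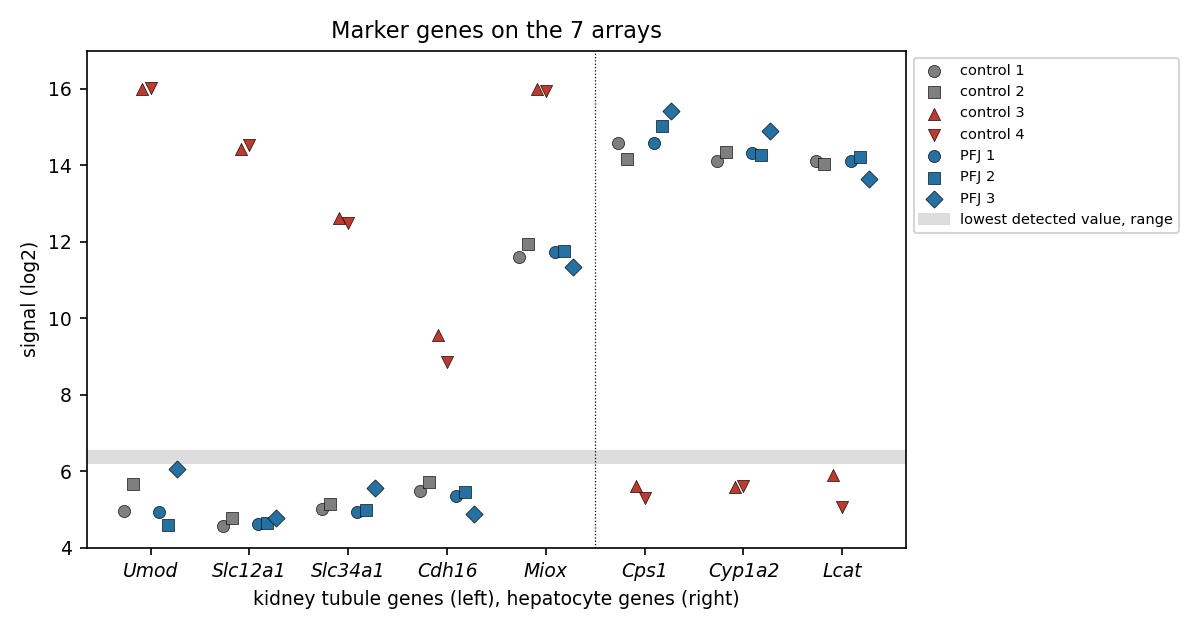
Log2 signal of 5 kidney tubule genes and 3 hepatocyte genes on each of the 7 arrays, 1 point per array; the grey band is the range of the lowest detected value, 6.22 to 6.52. Control arrays 3 and 4 (red triangles) lie near 16 for *Umod* and below 6 for *Cps1*, with the other 5 arrays the other way round.

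The separation ran through the whole array. On arrays 3 and 4, 1333 genes (31.4% of the genes tested) exceeded all the other arrays and 1162 (27.4%) fell below them all. Of these, 388 genes (9.15%) were higher and 292 (6.89%) lower by 4-fold or more in their measured means, which is what "4-fold" counts below refer to. With arrays under their lowest detected value raised to it, 278 of the 388 and 241 of the 292 were still 4-fold apart. These shares are the background against which the gene groups below are read, and the contrast that chose the arrays also chose them. When array medians were equalised instead of quantiles, 1758 genes lay above and 701 below, and the median difference of all genes moved from 0.01 to 0.30. Against control replicates 1 and 2 alone, within the control diet, 387 genes were 4-fold higher and 310 were 4-fold lower. At the edge of the 4-fold rule, *Ica1* at 2.006 was just inside and *Ccl21c* at 1.997 just outside on the higher side, with *Rtn4rl1* at -2.017 and *B4galnt4* at -1.999 on the lower side.

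Many of these genes were present on 1 set of arrays and at background on the other. In all, 332 genes were detected on both arrays 3 and 4 and on none of the other 5, and 178 on each of the other 5 and on neither of the pair. Among the 388 genes 4-fold higher, 208 were undetected on every one of the other 5 arrays and so passed the detection rule only through arrays 3 and 4. When detection on at least 3 arrays was required, 180 genes were 4-fold higher and 292 were 4-fold lower, and with detection on all 7 arrays the counts were 112 and 140. The 388 genes had a median of 9.49 and 9.51 on arrays 3 and 4 against 5.59 to 5.70 on the others, and that of the 292 genes was 6.26 and 6.40 against 10.52 to 10.78.

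**Figure D2:**
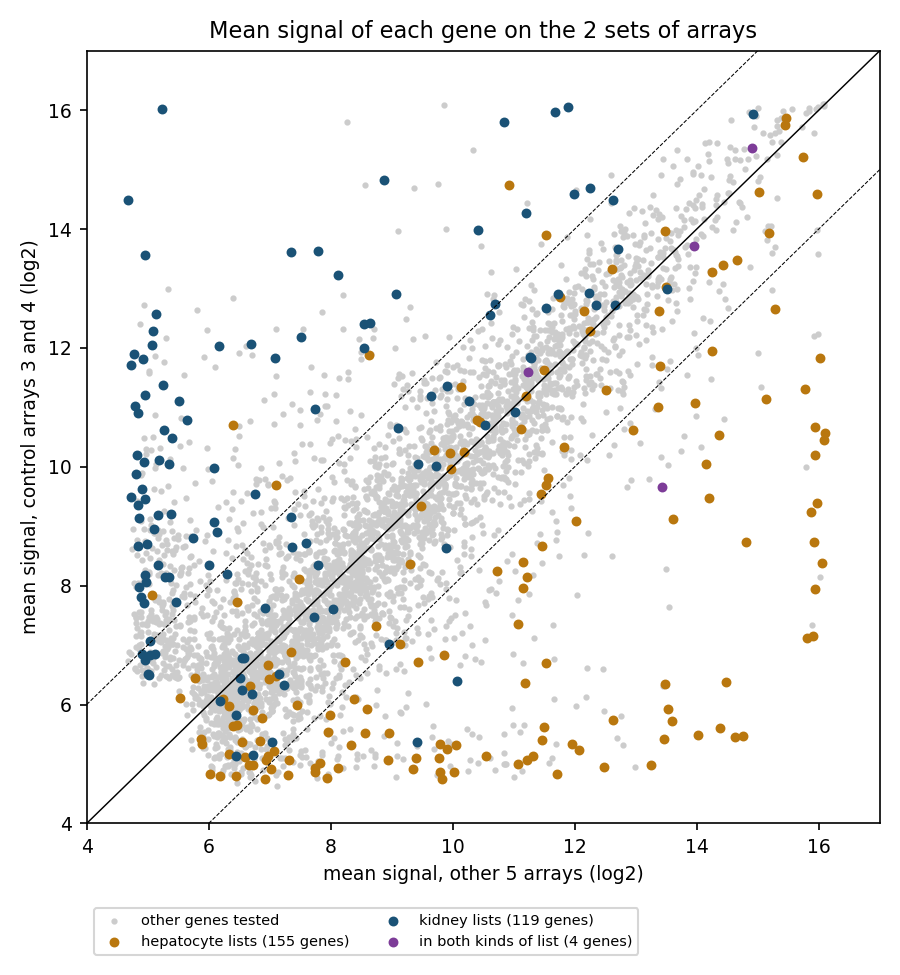
Mean log2 signal of each of the 4241 genes on the other 5 arrays (horizontal axis) and on control arrays 3 and 4 (vertical axis), with the line of equality and dashed lines at 4-fold; hepatocyte list genes are orange, kidney list genes blue and genes in both purple. Hepatocyte genes spread along the lower right, with many at background on arrays 3 and 4, and kidney genes along the upper left.

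The genes of proteins that hepatocytes secrete were lower almost throughout. Of 23 tested genes of secreted plasma proteins, 0 lay above and 19 below the other arrays, all 19 of them 4-fold lower in measured means and 16 with the lowest detected value as the floor. The list median was 6.13 and 6.78 on arrays 3 and 4 and 13.39 to 13.79 on the other 5. *Itih4*, an inter-alpha-trypsin inhibitor heavy chain, read 6.68 and 7.63 on arrays 3 and 4 against 15.93, 15.76, 16.01, 15.82 and 16.01 on the others, in the order given above. *Ahsg*, which encodes fetuin-A, read 8.34 and 8.42 against 16.07, 16.04, 16.05, 16.01 and 16.08. *Trf*, the plasma iron carrier transferrin, read 8.40 and 9.08 against 15.85 to 16.01. These 3 were still detected on both arrays 3 and 4, far under the level of the other arrays. The members that overlapped, *Ttr*, *Azgp1*, *Serpina1a* and *Rnase4*, had means of 6.02 to 6.97 on the other 5 arrays and were dim there as well.

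Coagulation and complement genes lay the same way, with 15 of 17 tested below and 0 above. *Masp2*, a protease of the lectin pathway of complement, read 5.21 and 5.70 against 14.53, 14.74, 14.67, 14.85 and 14.33, and was at least 322-fold lower. *F2*, which encodes prothrombin, had means of 4.96 and 12.47 on the 2 sets, and *Klkb1*, plasma prekallikrein, had means of 5.93 and 13.53. *Fgg*, the fibrinogen gamma chain, remained detectable, with means of 11.31 and 15.78. All these genes encode plasma proteins of hepatic origin. Of 10 apolipoprotein and HDL genes, 7 lay below and 0 above. *Apoa2*, the second protein of HDL, read 5.09 and 4.87 against 13.20, 12.82, 13.80, 13.55 and 12.91, and *Apoc4* read 7.36 and 6.88 against 15.76, 15.91, 15.86, 15.86 and 15.69. *Apoe*, which many cell types make, was detected on every array, with means of 9.23 and 15.87.

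P450 and urea cycle genes lay mostly below as well. Of 15 tested P450 genes of families 1 to 4, 12 lay below and 1 above. *Cyp2c70*, which forms muricholic acids in mouse bile, read 7.55 and 8.34 against 15.86 to 16.02. *Cyp4b1* ran against its list, at 9.73 and 9.65 against 6.32, 7.48, 6.65, 7.87 and 7.19, a difference of 2.59. In the urea cycle 4 of 5 genes lay below, and the exception, *Ass1*, encodes argininosuccinate synthase, which the proximal tubule also uses to make arginine. It read 13.75 and 13.69 against 13.89, 13.80, 13.63, 14.84 and 13.64, so that the sets overlapped. *Nags*, which makes the activator of *Cps1*'s enzyme, read 5.39 and 5.28 against 9.90, 9.61, 9.89, 9.36 and 10.21.

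All 9 tested genes of bile acid synthesis and transport lay below every other array, 4 of them 4-fold lower. *Cyp27a1*, a sterol 27-hydroxylase, had means of 8.74 and 14.80, and *Abcb4*, the canalicular phospholipid flippase, was undetected on arrays 3 and 4, with means of 4.83 and 11.71. Genes of glycogen, fructose and lipid synthesis lay below in 9 of 13 cases and above in 1. *Gys2*, the liver glycogen synthase, read 5.03 and 5.10 against 11.12, 11.06, 11.24, 11.30 and 11.38. The single gene above was *Khk*, the ketohexokinase of liver and proximal tubule, at 15.52 and 15.22 against 15.13, 14.84, 14.80, 15.09 and 14.70. Hepatic transcription factors lay below in 14 of 16 cases, led by *Foxa3* at 5.11 and 5.14 against 11.39, 11.60, 10.92, 10.87 and 11.83. *Hnf4a*, which hepatocytes and proximal tubule cells both use, differed by -0.56, at 6.44 and 6.43 against 6.98, 6.79, 7.11, 6.72 and 7.35. Its values lay near the lowest detected ones on both sets, where changes are understated. *Nr2f2* lay above, by 1.26.

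The last hepatocyte lists, major urinary proteins with the growth hormone axis, amino acid breakdown and phase II conjugation, were mixed. Of 6 major urinary protein and growth hormone axis genes, 3 lay below, 1 above and 2 overlapped. The list median ranged from 8.50 to 12.24 over the other 5 arrays. The gene above, *Igfbp2* (difference 2.77), was undetected on those 5. Of 19 genes of amino acid breakdown, 5 lay above, 4 below and 10 overlapped, a median difference of 0.13. *Gnmt*, which uses up S-adenosylmethionine, read 10.73 and 10.60 against 15.69 to 16.05, whereas *Gldc* of the glycine cleavage system read 10.96 and 10.46 against 6.82, 6.31, 5.73, 7.41 and 5.77. Of 26 phase II conjugation genes, 13 lay below and 4 above. *Inmt*, an indole methyltransferase, had means of 5.33 and 11.95. The members above were *Sult1c2* (difference 3.82), *Gstp1* (3.25), *Nat8* (2.36) and *Gstm5* (1.08). *Gstp3*, a glutathione transferase of the pi class that was outside the lists and among the 20 genes with the largest difference below, read 7.10 and 7.58 against 15.89, 15.91, 15.89, 15.87 and 15.91.

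Part of the lower genes still gave a signal on arrays 3 and 4. Of the 159 tested genes of the hepatocyte lists, 87 were detected on both arrays. Of the 292 genes 4-fold lower, of which 83 stand in a hepatocyte list, 140 were detected on both arrays, 15 on 1 of them and 137 on neither. On the linear scale, before normalisation between arrays and with the background removed, the 140 genes had a median of 15.6% of their mean over the other 5 arrays on array 3 and 13.3% on array 4, a median that leaves out the undetected genes by construction. The share was 0.616% and 0.546% for *Ahsg*, 0.678% and 0.924% for *Trf*, and 0.186% and 0.332% for *Itih4*. These 3 genes lay near the top of the scale on the other arrays, so that the shares can be too high. For *Hp*, which encodes haptoglobin, the share was 1.27% on array 3 and 4.06% on array 4.

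On the kidney side, genes of proximal tubule transport and uptake lay mostly above. Of 20 tested genes, 17 lay above and 2 below, and 13 were 4-fold higher. Only 9 of the 20 were detected on 2 or more of the other 5 arrays, and of these 6 lay above. The list median was 10.66 and 10.25 on arrays 3 and 4 and 5.66 to 6.38 on the others. *Slc22a12*, the urate transporter URAT1, read 11.16 and 10.90 against 4.78, 4.82, 4.78, 4.85 and 4.71, and *Slc7a9*, a cystine transporter subunit, read 11.99 and 12.06 against 5.06, 6.96, 6.20, 6.87 and 5.77. *Cltrn*, which encodes collectrin, a chaperone of amino acid transporters, was at least 26.2-fold higher. *Aqp1*, the water channel of the proximal tubule and of endothelium, was detected on every array, at 14.31 and 14.23 against 11.32, 11.29, 11.30, 11.16 and 10.98. The members below were *Slc2a9*, a urate transporter that liver also expresses, at 5.54 and 5.19 against 9.20, 9.45, 9.53, 9.40 and 9.49, and *Slc6a13*, a GABA and taurine transporter, which differed by -1.25.

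Brush border and proximal tubule enzyme genes were split, with 15 of 27 above and 5 below, and a median difference of 0.63. Among the 24 detected on 2 or more of the other 5 arrays, 12 lay above and 5 below. *Folr1*, a folate receptor of the brush border, read 13.86 and 13.27 against 5.08, 5.23, 4.87, 4.81 and 4.80, at least 143-fold higher. *Mep1b*, the beta subunit of the brush border protease meprin, read 12.68 and 11.88 against 4.93, 5.20, 5.26, 4.89 and 5.19. *Lgmn*, the lysosomal protease legumain, read 15.91 and 15.69 against 10.30, 11.10, 10.76, 11.29 and 10.79. Genes near equality in this list included *Fbp1*, a gluconeogenic enzyme of liver and kidney, which differed by 0.06, and *Hpd*, which differed by 0.37. The 5 members below were *Cyp2e1* (-3.76), *Naprt* (-1.94), *Glyctk* (-0.92), and *Hsd11b1* and *G6pc*, both undetected on arrays 3 and 4 and at least 1.11-fold lower. *Hsd11b1* was detected on only some of the other 5 arrays, so its place below them all rests on values that have no order. *Cyp2e1*, the ethanol-oxidising P450, is also a hepatocyte list gene.

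In the thick ascending limb list 9 of 11 genes lay above, all 9 of them 4-fold higher in measured means and 8 with the floor applied. However, 8 of the 11 were undetected on each of the other 5 arrays and entered the list only through arrays 3 and 4. Of the 3 detected on 2 or more of those 5 arrays, 1 lay above and 1 below. The median difference was 5.08 as measured and 4.08 with the floor. After *Umod* and *Slc12a1* came *Cldn16*, a claudin of the pathway that takes up magnesium and calcium, at 11.64 and 12.17 against 4.60, 4.65, 4.86, 4.94 and 4.80. *Cldn10*, a claudin that forms sodium-permeable pores, read 11.33 and 11.40 against 5.20, 5.42, 5.09, 5.17 and 5.38. *Cldn14* ran the other way, at 5.50 and 5.25 against 7.23, 7.01, 7.82, 5.65 and 7.44, and *Irx1* overlapped. For *Cldn14*, arrays 3 and 4 and PFJ replicate 2 all lay under their lowest detected values. Its place below them all therefore rests on values that have no order. In the distal convoluted and connecting tubule 10 of 11 genes lay above and 0 below, with 9 and 0 among the 10 detected on 2 or more of the other 5 arrays. *Fxyd2*, the gamma subunit of the sodium pump, read 13.33 and 13.14 against 8.13, 8.69, 8.02, 7.89 and 7.87. *Slc12a3*, the thiazide-sensitive sodium-chloride cotransporter, differed by 1.55, at 11.34 and 11.04 against 9.62, 9.84, 9.84, 9.15 and 9.74, and its probe therefore gave a signal on all 7 arrays.

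In the collecting duct, 9 of 11 principal cell genes lay above and 2 below. However, 8 of the 11 were undetected on each of the other 5 arrays and passed the detection rule only through arrays 3 and 4. Of the 3 detected on 2 or more of those 5 arrays, 1 lay above and 2 below. *Hsd11b2*, which inactivates glucocorticoids in aldosterone target cells, read 10.91 and 10.91 against 4.84, 4.74, 4.82, 4.89 and 4.95. *Gata3*, a transcription factor of the collecting duct, read 10.22 and 10.19 against 4.85, 4.85, 4.73, 4.98 and 4.75. The members below were the keratins *Krt18* and *Krt8* of simple epithelia, which hepatocytes also express. *Krt8* differed by -0.51, and *Krt18* was undetected on arrays 3 and 4, at least 1.35-fold lower. Among 12 intercalated cell and proton pump genes, 11 lay above and 0 below. Of the 9 detected on 2 or more of the other 5 arrays, 8 lay above and 0 below. *Car2*, a cytosolic carbonic anhydrase, read 12.92 and 12.88 against 8.71, 9.53, 8.75, 9.07 and 9.29. *Slc4a1*, the chloride-bicarbonate exchanger of red cells and of acid-secreting intercalated cells, read 10.47 and 9.50 against 5.88, 5.62, 6.48, 5.79 and 6.68, whereas the erythroid gene *Alas2* differed by -3.74.

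Patterning and epithelial genes of the nephron lay above in 17 of 20 cases and below in 0, but 15 of the 20 were undetected on each of the other 5 arrays. Among the 5 detected on 2 or more of those arrays, 2 lay above and 0 below. The posterior homeobox genes *Hoxd10* and *Hoxa9*, which mark positions along the trunk, read 11.93 and 12.17, and 11.72 and 11.70, on arrays 3 and 4. Neither was detected on any of the other 5 arrays, and they were at least 50.1-fold and 39.6-fold higher. *Hoxd9*, *Hoxc9* and *Hoxc10* were undetected there as well and at least 6.90-fold, 3.87-fold and 2.49-fold higher, and *Pax8*, a renal lineage factor, was at least 1.35-fold higher. The 4 tested podocyte and glomerulus genes all lay above. Of these, 2 were undetected on each of the other 5 arrays and passed the detection rule only through arrays 3 and 4. The 2 detected on 2 or more of those 5 arrays both lay above. *Podxl*, the podocyte surface sialoprotein, read 12.49 and 12.32 against 8.79, 8.34, 8.53, 7.71 and 9.38. *Wt1*, the podocyte transcription factor, was detected only on arrays 3 and 4, at 6.31 and 6.69, near the lowest detected values.

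Of 8 genes of the sodium pump and organic osmolytes, 4 lay above and 1 below. *Atp1b1*, the beta subunit of the sodium pump, read 16.06 and 16.04 against 11.76, 12.02, 11.85, 12.18 and 11.65, with both arrays at the top of the scale. *Slc6a6*, the taurine transporter, read 14.08 and 13.90 against 10.78, 10.47, 10.51, 10.07 and 10.25. *Slc6a12*, the betaine transporter of liver and of the renal medulla, was the member below, at 6.49 and 6.30 against 10.28, 10.22, 9.98, 10.14 and 9.73. Taking the lists together, 95 of 123 tested genes of the kidney lists lay above and 11 below. Of these 123 genes, 51 were not detected on 2 or more of the other 5 arrays, and among the 72 that were, 44 lay above and 11 below. In the hepatocyte lists 109 of 159 genes lay below and 13 above, with 109 and 12 among the 156 detected on 2 or more of the other 5. That rule keeps genes that are bright on the other 5 arrays, so it is no check on the hepatocyte lists. Of the 159 genes, 87 were detected on both arrays 3 and 4, and the split among those was not counted. Of all 3771 genes detected on 2 or more of the other 5 arrays, 947 lay above and 1162 below. All the lists were written with earlier results of these arrays known, and 4 tested genes stand in both kinds.

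**Figure D3:**
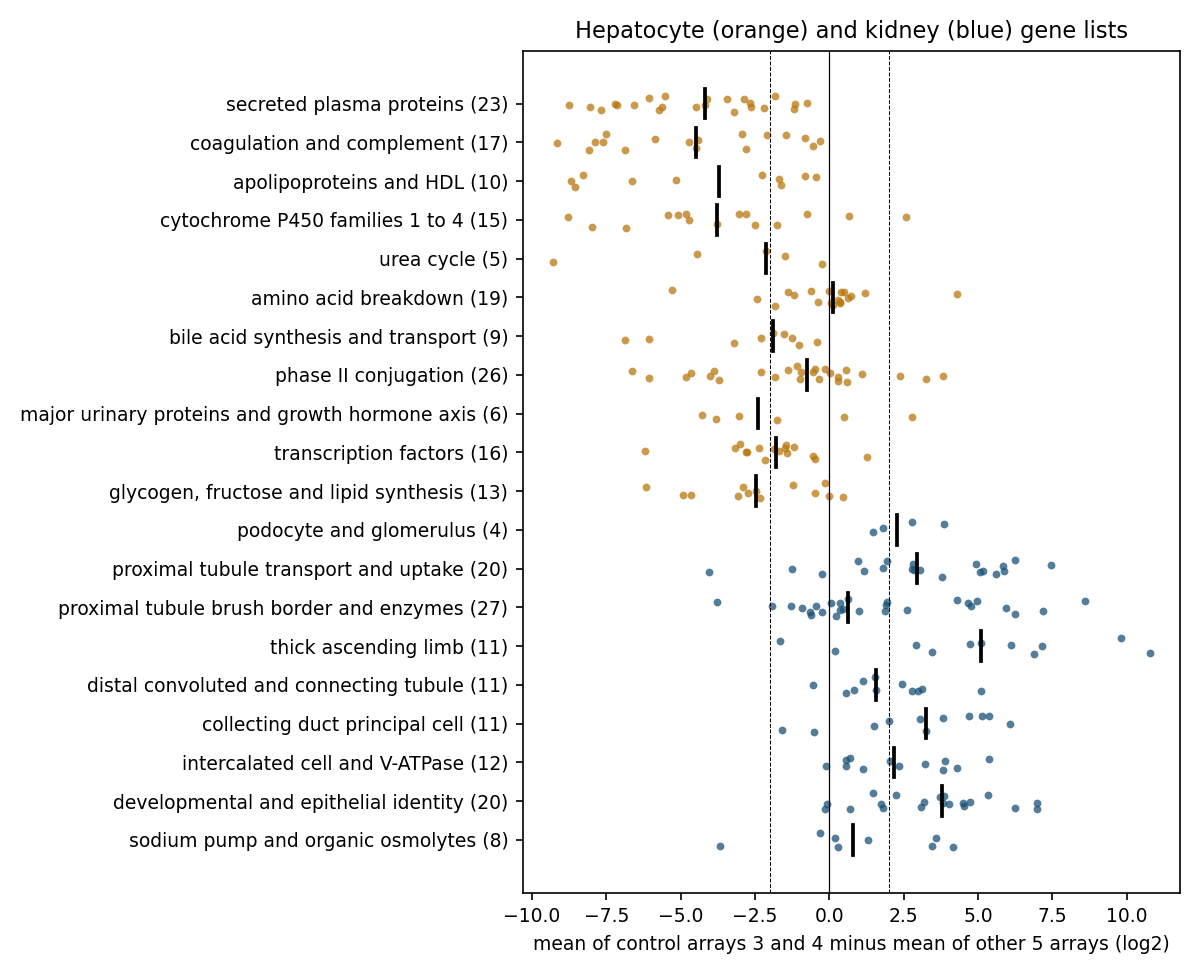
Difference between the mean log2 signal of control arrays 3 and 4 and that of the other 5 arrays for each tested gene of the 20 hepatocyte (orange) and kidney (blue) lists, with the number of genes in parentheses; black bars are list medians and dashed lines mark 4-fold. Measured values are plotted, undetected genes included, with medians from -4.47 for coagulation and complement to 5.08 for the thick ascending limb; of the 123 kidney list genes, 51 passed the detection rule with fewer than 2 of the other 5 arrays.

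Several of the most separated genes belonged to no list. *Ndrg1*, a stress-responsive gene of many epithelia, read 15.76 and 15.83 on arrays 3 and 4 against 7.88, 8.28, 7.83, 8.42 and 8.88. *Gpx3*, the secreted glutathione peroxidase that kidney tubules supply to plasma, read 16.09 and 16.09 against 9.58, 9.90, 9.95, 9.18 and 10.70. *Plau*, which encodes urokinase, read 14.74 and 14.76 against 8.49, 8.59, 8.48, 8.70 and 8.57. Further genes among the 20 with the largest difference above were *Ckmt1*, a mitochondrial creatine kinase, *Espn*, which bundles actin in microvilli, *Dusp15*, *Prr15l* and *Gk5*, with means of 12.16 to 12.99 on arrays 3 and 4 against 4.94 to 6.40. *Gp2*, a relative of *Umod*, lay next to it in the NR annotation (assembly mArvNil1). It read 9.35 and 10.45 on arrays 3 and 4 and was undetected on the others. In that annotation, 9 of 937 pairs of neighbouring tested genes were both 4-fold higher, *Hoxd10* with *Hoxd9* and *Hoxc10* with *Hoxc9* among them. A further 5 pairs were both 4-fold lower, such as *Apoc3* with *Apoa4*, and 10 went opposite ways. Of all genes tested, 9.15% were 4-fold higher and 6.89% lower. The number of such pairs among unrelated genes was not computed, so these counts do not show that neighbours changed together.

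Pairs of related genes, listed here as a liver form and another form, were followed gene by gene. These names are those of the listing and do not mean that a form is confined to 1 tissue. Of 35 pairs, 3 had both members tested, and in each the measured mean of the liver form was lower and that of the other form higher on arrays 3 and 4. *Car3*, the carbonic anhydrase abundant in liver, muscle and fat, read 10.74 and 10.88 against 13.41, 14.72, 14.27, 15.38 and 14.49, while *Car2* was 3.83 higher. *Cdh2*, the N-cadherin of hepatocytes, was undetected at 6.17 and 5.81 against 9.04, 8.61, 8.51, 9.13 and 8.41, while *Cdh16* was at least 7.00-fold higher. *Hsd11b1*, which regenerates glucocorticoids, was detected on 2 of the other 5 arrays and on neither of the pair, while *Hsd11b2* was at least 22.7-fold higher. Where only the liver form was tested, its measured mean was lower in 9 of 11 pairs and higher for *Prodh2* (0.71) and *Esrra* (1.01). These counts go by sign alone, and the median difference of all genes was 0.01. Among the 9, *Slc22a7* (-0.26) and *Atp6v0a1* (-0.10) were near equality, and *Mat1a* was at -1.38 as measured but 0.11 with the floor. Where only the other form was tested, it was higher in 6 of 8 pairs and lower for *Atp7a* (-0.56) and *Got2* (-0.30). Among the 6, *Fabp3* and *Slc22a2* were undetected on the other 5 arrays and passed the detection rule only through arrays 3 and 4. *Oxct1*, which lets tissues other than liver use ketone bodies, read 12.54 and 12.75 against 5.04, 6.12, 5.77, 5.63 and 6.44, at least 75.7-fold higher, and *Bdh1*, which interconverts ketone bodies and is abundant in liver, differed by -1.99.

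Cells of the liver other than hepatocytes followed suit in part. Of 7 sinusoidal endothelial genes, 5 lay below and 0 above, with *Stab1*, a scavenger receptor of sinusoids, at 6.99 and 6.91 against 9.34, 9.51, 9.68, 9.75 and 9.77. *Mrc1*, the mannose receptor, was undetected on arrays 3 and 4, at least 3.51-fold lower. Of 3 macrophage genes, *C1qa* lay below by -1.97 and *C1qc* was undetected on the pair and at least 4.43-fold lower, while *Lyz2* overlapped. Of 16 stellate cell and matrix genes, 8 lay above and 5 below. *Reln*, which encodes reelin, a product of liver stellate cells, was undetected at 5.81 and 5.97, with a mean of 12.48 on the other 5, at least 72.9-fold lower. *Timp3* and *Mgp*, a protease inhibitor and an inhibitor of calcification, were higher by 3.60 and 3.23. The cholangiocyte list, of bile duct cells, ran the other way, with 2 of 3 genes above and 0 below. Both were 4-fold higher in measured means, but both were undetected on the other 5 arrays and passed the detection rule only through arrays 3 and 4.

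Markers of other organs were few. No gene of the pancreas or of the intestine and stomach lists was among the genes tested, out of 18 and 16 with a probe. Of 10 tested genes of the adrenal, fat, muscle, blood, lung, testis and brain lists, 4 lay above and 4 below. *Cox7a1*, a subunit of cytochrome oxidase in muscle and brown fat, read 11.83 and 11.85 against 5.87, 6.38, 6.57, 4.87 and 5.92.

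Genes that many cell types use overlapped about as often as genes in general, but few were far apart. Of 161 such genes tested, 49 lay above and 44 below, and 4 and 3 were 4-fold higher and lower. Of 35 cytosolic ribosomal protein genes, 10 lay above, 8 below and 17 overlapped, with a median difference of -0.01 and 0 were 4-fold apart. Of 19 proteasome genes, 2 lay above and 5 below, with a median of -0.10. *Fth1*, the ferritin heavy chain, read 16.10 and 16.11 against 16.10, 16.07, 16.08, 16.11 and 16.08, at the top of the scale. Respiratory chain genes lay above in 23 of 46 cases and below in 3, with a median difference of 0.44, and citric acid cycle genes in 5 of 6 and 0, with 0.69. Each of the 46 and 6 genes stayed under 4-fold. Fatty acid oxidation and ketogenesis genes lay below in 20 of 29 cases and above in 3, which were *Fabp3* and *Oxct1*, undetected on the other 5 arrays and at least 64.3-fold and 75.7-fold higher, and *Acsl3*, with a difference of 3.45. The median of this list was -1.22.

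Arrays 3 and 4 also differed from each other, though much less, and with 1 array a side there is no test. Of 3525 genes detected on both, 34 were at least 2-fold higher on array 4 and 27 on array 3, and the median absolute difference was 0.22. The largest excess on array 4 was in *Igf1*, the growth hormone target that the liver secretes, at 9.24 on array 3 and 11.85 on array 4. *Hp* read 9.44 and 11.47. Of the 11 secreted plasma protein genes detected on both arrays, 10 were higher on array 4, with a median difference of 0.68. Coagulation and complement genes were higher there in 5 of 5 cases. Several other hepatocyte lists leaned towards array 3, and over all 87 hepatocyte list genes detected on both arrays 37 were higher on array 4 and 50 on array 3, with a median of -0.06. P450 genes were higher on array 3 in 5 of 6 cases, urea cycle genes in 3 of 3 and genes of amino acid breakdown in 12 of 15. The genes of proximal tubule transport leaned towards array 3, with 16 of 19 higher there and a median of -0.23, and those of the brush border list did so in 21 of 24 cases, with a median of -0.12. Immediate early and heat shock genes, which respond to stress and handling, were higher on array 3 in 11 of 11 cases, with a median of -0.52. Principal cell genes leaned towards array 4, in 7 of 10 cases with a median of 0.28. Over all 3525 genes 1784 were higher on array 4 and 1734 on array 3. The largest excess on array 3 was in *H2bc14*, a histone gene, at 11.65 and 8.02, but this gene also varied between 8.87 and 12.21 on the other 5 arrays.

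**Figure D4:**
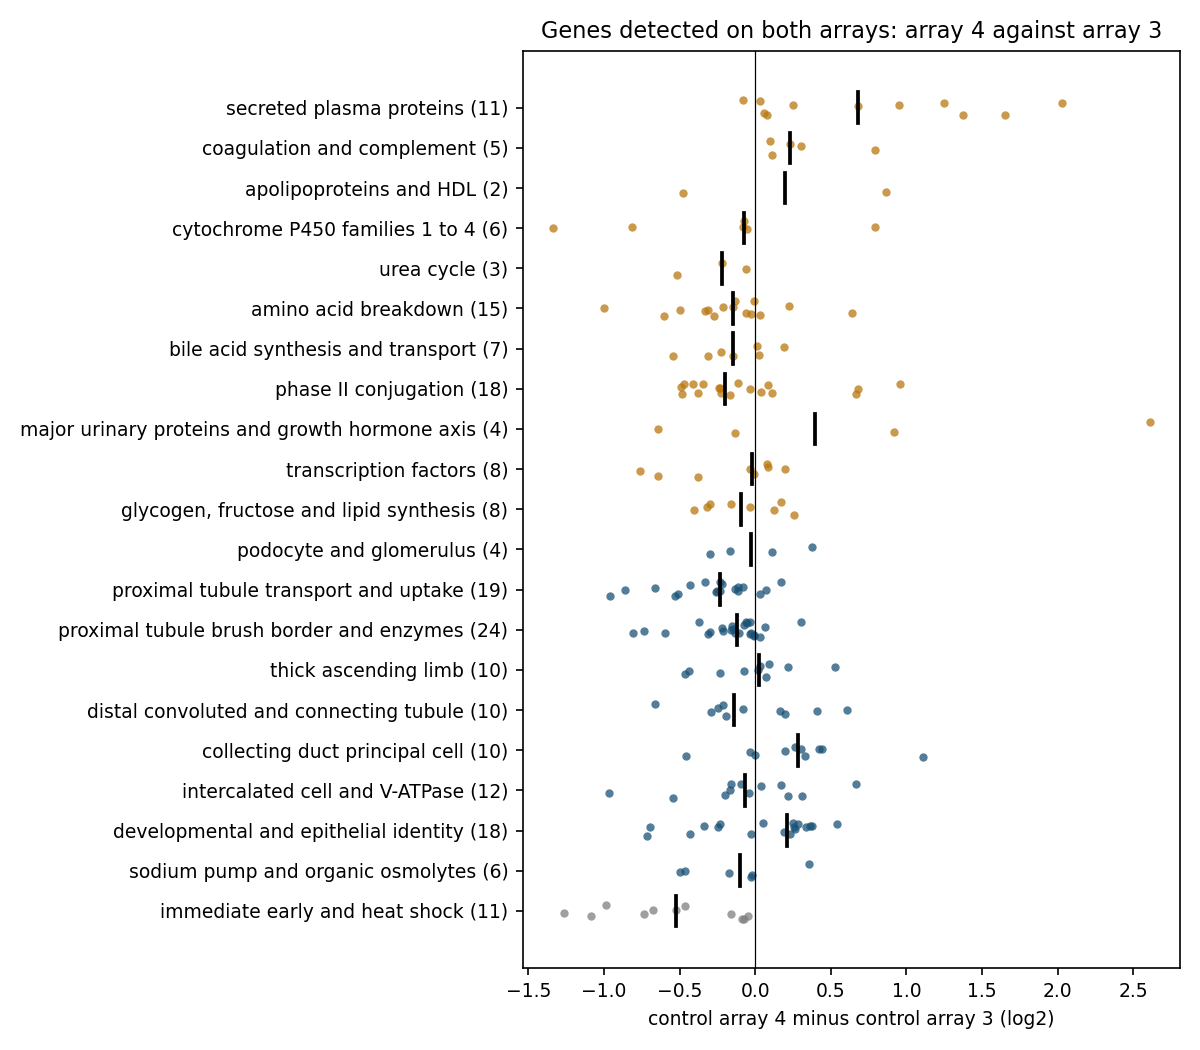
Control array 4 minus control array 3 (log2) for the genes of the 11 hepatocyte lists (orange), the 9 kidney lists (blue) and the immediate early and heat shock list (grey) detected on both arrays, with the number of genes in parentheses and bars at the list medians. Secreted plasma protein genes lie to the right (median 0.68), and immediate early and heat shock genes (median -0.52) and proximal tubule transport genes (median -0.23) to the left.

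Since both arrays belong to the control group, the diet contrast was computed with and without them. The comparisons share control replicates 1 and 2 and the PFJ arrays, so their values are set side by side. With all 7 arrays, 90 genes (2.12%) were higher and 100 (2.36%) lower with PFJ at an unadjusted p under 0.05 from limma, and 0 passed at an adjusted p under 0.05, the lowest adjusted p being 0.0701. Leaving both arrays out, the PFJ value exceeded the control value in 62 of 3771 genes (1.64%) and fell under it in 72 (1.91%) at the unadjusted threshold, with 0 higher and 1 lower at the adjusted one.

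The genes that separate arrays 3 and 4 leaned 1 way in the 7-array contrast. The PFJ log2 fold change was negative for all 388 genes 4-fold higher on the pair (median -1.57) and positive for all 292 genes 4-fold lower (median 1.65), directions that the choice of genes fixes. Of these, 9 and 7 passed the unadjusted threshold, beside median residual SDs of 1.45 and 1.53 against 0.46 over all genes. In the 5-array contrast the medians were 0.01 over the 159 of the 388 genes that were tested there and -0.01 over the 292. Of the 159 genes 82 were higher and 77 lower, and of the 292 genes 143 and 149. At the unadjusted threshold, 8 of the 159 were higher and 1 lower, and 6 of the 292 were higher and 4 lower.

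The same held for single genes. *Cps1* had a log2 fold change with PFJ of 5.09 (standard error 2.60, adjusted p = 0.535 from limma) with 7 arrays and 0.64 (standard error 0.30, adjusted p = 1.00) with 5. *Lcat* had 4.22 (standard error 2.50) and -0.08 (standard error 0.24). *Miox* had -2.25 (standard error 1.23) and -0.15 (standard error 0.23). For each of these 3 genes the standard error was wider with arrays 3 and 4 in the control group. The median log2 fold change over the hepatocyte lists was 1.37 for 159 genes with 7 arrays and 0.02 for the 156 tested with 5. Over the kidney lists it was -1.35 for 123 genes and -0.06 for the 72 tested with 5, which are not the same set.

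The genes with the lowest p-values in the diet contrasts behaved otherwise. *Mup2*, a major urinary protein that rodent liver secretes, read 5.15 and 5.06 on arrays 3 and 4. On control replicates 1 and 2 it read 5.34 and 6.49, and 10.51, 11.89 and 12.76 on the PFJ arrays. It is among the 292 genes 4-fold lower on arrays 3 and 4, yet all 4 controls lay below the PFJ arrays, so that its log2 fold change was 6.21 with 7 arrays (adjusted p = 0.0701 from limma) and 5.81 with 5 (adjusted p = 0.255). *Mup6* had 5.23 and 5.31, and *Apoc1*, an apolipoprotein of HDL and of triglyceride-rich particles, had 2.71 and 2.71. Mup genes are near-identical copies, and the probes may read several of them. On the lower side the smallest p-values with 7 arrays belonged to *Fzr1*, whose protein switches on the anaphase-promoting ubiquitin ligase, *Dok1* and *Map3k2*, at -1.50, -1.10 and -1.16 (adjusted p = 0.535 for each from limma). For *Fzr1* arrays 3 and 4 overlapped the other controls, at 10.63 and 10.37 against 10.39 and 10.80. The single gene past the adjusted threshold with 5 arrays was *Qars*, glutaminyl-tRNA synthetase, which read 8.51 and 8.28 on control replicates 1 and 2 and 5.05, 4.82 and 4.93 with PFJ (adjusted p = 0.00727 from limma). The PFJ values lay under the lowest detected values and have no order. Within the 5 arrays *Qars* passed the detection rule only through control replicates 1 and 2, where it was high. *Qars* was also undetected on arrays 3 and 4, at 4.93 and 5.01, so that the controls themselves fell into 2 levels. *Rpap1* and *B3gat3* had the next smallest p-values on the lower side with 5 arrays, at -1.36 and -1.47 (adjusted p = 0.362 and 0.982 from limma).

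**Figure D5:**
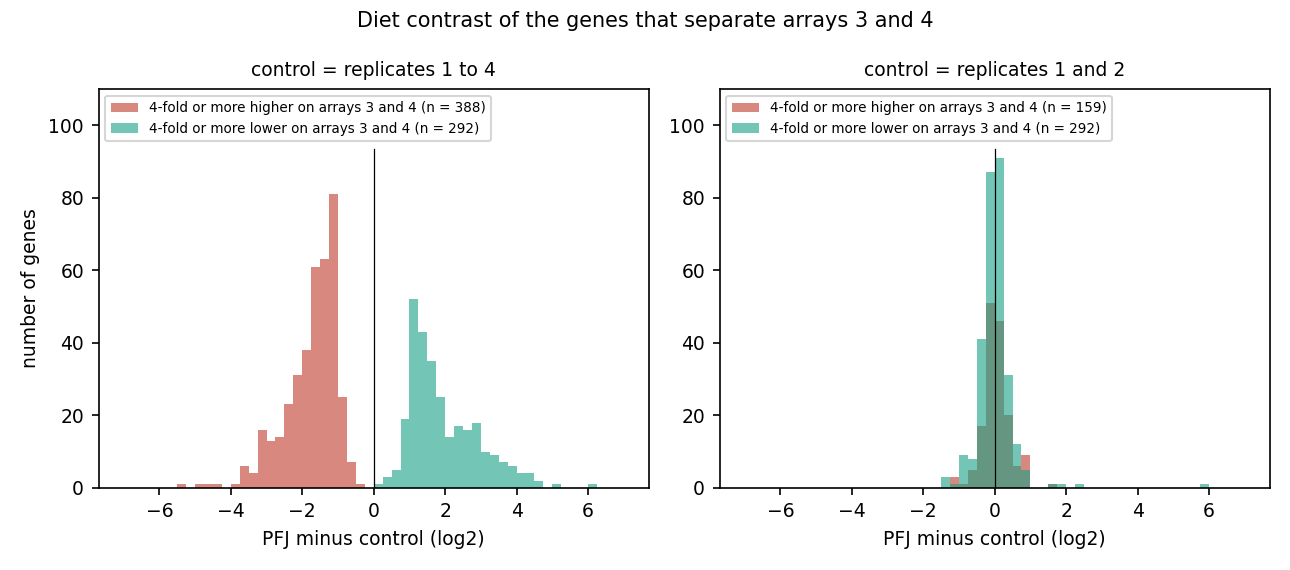
Histograms of the log2 fold change of PFJ against control for genes 4-fold or more higher (red) or lower (green) on control arrays 3 and 4, with all 4 control arrays (left) and with control replicates 1 and 2 alone (right). The medians are -1.57 and 1.65 on the left and 0.01 and -0.01 on the right.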

How the data were processed

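Total RNA was labelled as cRNA and hybridised to 1 array per sample. The authors exported mean probe signals and detection p-values from GenomeStudio 2011.1, and these deposited scanner intensity values, neither background-corrected nor normalised, were the starting point. The deposited series table holds intensity values that the authors had background-subtracted and rank-invariant normalised; it was used, floored at 10, as an alternative. Here the signals were corrected and quantile normalised with neqc of limma 3.58.1 (R 4.3.3) at an offset of 16, giving log2 values. That offset understates changes of dim genes. Probes detected at p under 0.01 on at least 2 arrays were kept, at 1 probe a symbol (of 25697 probes, 23141 had 1 symbol, 0 several, and 2556 were not listed). Diet contrasts used lmFit and eBayes with Benjamini-Hochberg adjustment, tested on simulated data. The members, markers and gene lists were chosen with earlier results of these data known. Named genes were the markers, the 20 largest bounded differences each way, the 5 largest of each list, members running against their list, isozyme pairs, the brightest near-equal genes, the largest differences between arrays 3 and 4, and the lowest diet p-values; *Aqp1*, *Gp2*, *Khk*, *Hnf4a*, *Bdh1*, *Slc12a3* and other further examples were chosen after their values were seen. Alternatives were other normalisations, detection rules and leaving out each array. No per-sample column was left unmapped. The number of arrays limits the precision.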

Additional observations from a re-analysis of the deposited data

Results flagged for a closer look

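Within the 4 control arrays, 2 of the 220 named genes had 1 array far from the other 3, while chance alone flags about 1 in 20 groups. *Actb*, the cytoskeletal actin, read 14.85, 14.92 and 14.90 on control replicates 1 to 3 and 15.47 on replicate 4. *Gpx1*, a glutathione peroxidase, read 16.11 on control replicate 1 and 16.08, 16.08 and 16.08 on replicates 2 to 4, at the top of the scale. Where the controls split into 2 and 2, as the separated genes do, no single array can stand apart by this measure.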

How the results depend on the processing

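Leaving out 1 array at a time gave 1380 to 1545 genes above and 1218 to 1389 below, 383 to 397 genes 4-fold higher and 293 to 307 lower. Genes above moved to 834 when detection on all 7 arrays was required and to 2109 with no detection rule, and genes below to 1955 with none and to 701 with medians set equal. At 4-fold, 190 genes were higher and 188 lower without background correction, 180 were higher when detected on at least 3 arrays, and 112 and 140 remained the counts for genes detected on all 7. Of 188 separated named genes 4 turned their direction under 1 or more of 11 alternatives, all bright and nearly equal on the 2 sets, and of 132 named genes 4-fold apart 22 fell under 4-fold in 1 or more. With medians set equal, *Rpl23* was at -0.0134, *Rps27* at -0.0083 and *Rps12* at -0.0358, and with the authors' values they were at -0.33, -0.33 and -0.36 and *Itm2b* at -0.19. The hepatocyte list median was -2.05, -2.71, -1.41 and -1.81, and the kidney list median 3.06, 3.29, 1.54 and 2.11, with medians set equal, the authors' values, no background correction and an offset of 50. Leaving out 1 array gave -2.39 to -2.15 and 2.61 to 2.81.

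For PFJ against control with 7 arrays, counts of genes higher, then lower, at the unadjusted threshold of 0.05 were 40 and 158 with medians set equal (1 adjusted call, *Mup2*; the median of all genes moved to -0.22), 56 and 149 with the authors' values, 52 and 60 when detected on all 7 arrays, and 445 and 356 with no detection rule. Leaving out 1 array gave 36 to 309 higher and 30 to 359 lower: 309 and 359 without control replicate 1, 254 and 308 without control replicate 2, 36 and 46 without control replicate 3, 47 and 42 without control replicate 4, and 43 and 30 without PFJ replicate 3. Adjusted calls then were 0 to 2 higher (*Mup2* and *Mup6* without PFJ replicate 1) and 0 to 1 lower (*Cops4* without PFJ replicate 2), and without both control replicates 3 and 4 there was 1. The replicate number as a block gave 35 higher and 29 lower, with 0 adjusted calls. Deviations of same-numbered arrays from their group means correlated at 0.08, 0.19 and 0.11. The control mean included arrays 3 and 4, so these values cannot show whether same-numbered arrays share more than a number. The following were added after seeing the data. With the lowest detected value as a floor, 278 genes were 4-fold higher and 241 lower, and the hepatocyte and kidney list medians were -1.67 and 1.87. With 5 arrays, medians set equal gave 37 genes higher. Leaving out 1 array gave 51 to 111 higher and 32 to 144 lower, and 0 to 2 adjusted calls, 0 of them without control replicate 1, control replicate 2, PFJ replicate 1 or PFJ replicate 3, so that the *Qars* call rests on each of these arrays. Between arrays 3 and 4, at least 2-fold differences were 13 higher on array 4 without background correction, and 59, 42 and 12 higher on array 3 with medians set equal, the authors' values and no background correction. The cause of these changes was not tested. Low signal limits these values, as most probes lay near background.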
